A study of Homo sapiens with 7 samples.

Results

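RNA levels of 9 genes that write, maintain or remove DNA methylation were followed in 2 human T-cell acute lymphoblastic leukaemia lines: DNMT1, UHRF1, HELLS, DNMT3A, DNMT3B, TET1, TET2, TET3 and TDG. The genes were chosen by symbol, each matched 1 row, and together they are 9 of the 60662 genes in the deposited files. Bulk total RNA had been sequenced in 7 libraries, all of untreated cells in standard culture. The PF382 line had 2 wild-type libraries and 3 libraries labelled STAG2 knockout, made by delivering Cas9 protein with a guide RNA. The MOLT-14 line had 1 library of cells transduced with an empty vector and 1 of cells transduced with STAG2. STAG2 is a subunit of cohesin, the ring complex that holds sister chromatids together and shapes chromatin loops, and STAG1 is its paralog. Nothing in the labels says whether the PF382 libraries came from separate cultures or clones, so p-values measure the spread between these libraries, which may be technical. The MOLT-14 groups have no replicates.

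In mammalian cells methyl groups sit on cytosines followed by guanine (CpG). After replication UHRF1 recognises hemimethylated CpG and brings in DNMT1, which copies the mark to the new strand, while HELLS remodels nucleosomes so that compact chromatin can be methylated. DNMT3A and DNMT3B methylate sites that carried no mark. TET1, TET2 and TET3 oxidise 5-methylcytosine, and TDG cuts out the further oxidised bases, which base excision repair then replaces with cytosine. In blood cells DNMT3A and TET2 are best known as tumour suppressors mutated in leukaemia.

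Promoter sequence is shown for TDG, UHRF1 and TET1, because these were the genes among the 9 that changed between PF382 knockout and wild type. Each stretch comes from the RefSeq promoter table (GRCh38.p14), reads 5′ to 3′ on the gene's strand, and lies before a RefSeq transcription start where the annotation (GENCODE 29) has no exon. Capitals mark CACGTG, the E-box bound by MYC and related factors, or GGGCGG, the GC box bound by SP1-type factors.
TDG promoter, chr12:103965709-103965803, plus strand: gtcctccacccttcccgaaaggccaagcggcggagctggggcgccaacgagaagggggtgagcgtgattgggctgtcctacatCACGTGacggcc
UHRF1 promoter, chr19:4909894-4910143, plus strand: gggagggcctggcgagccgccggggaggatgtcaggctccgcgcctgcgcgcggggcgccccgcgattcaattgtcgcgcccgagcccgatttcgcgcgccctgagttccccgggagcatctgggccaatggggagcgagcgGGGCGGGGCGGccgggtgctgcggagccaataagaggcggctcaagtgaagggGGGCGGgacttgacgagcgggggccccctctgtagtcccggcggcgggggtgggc
TET1 promoter, chr10:68560087-68560336, plus strand: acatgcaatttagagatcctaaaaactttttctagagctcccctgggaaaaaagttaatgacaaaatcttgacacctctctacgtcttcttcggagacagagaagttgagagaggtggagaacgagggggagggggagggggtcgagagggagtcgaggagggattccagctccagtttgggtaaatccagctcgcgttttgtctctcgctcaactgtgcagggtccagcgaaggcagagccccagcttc
The TDG stretch of 95 bases holds 1 E-box and 8 CpG, and the full window of 250 bases before that start holds 22 CpG. The UHRF1 stretch of 250 bases holds 3 GC boxes, of which the first and second overlap, and 32 CpG. The TET1 stretch of 250 bases holds none of the motifs and 9 CpG. Over all 35116 windows of 250 bases before a start in the table, the median was 11 CpG.

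Motifs were searched on both strands in the 250 bases before each start, in 20 windows that together cover all 9 genes. Some windows of a gene overlap, so a site can count more than once. The E-box CACGTG was found in 5 of the 20 windows, beside 6.34% of all windows. These windows belong to 4 genes, TDG, DNMT3A, TET2 and TET3. The GC box GGGCGG was found in 11 of the 20 windows, for UHRF1, HELLS, DNMT3A, TET2 and TET3, beside 42.6% of all windows. TTTCCCGC and TTTGGCGC are a core of sites bound by the E2F factors that drive S-phase genes. Either was found in 2 of the 20 windows, for UHRF1 and HELLS, beside 1.93% of all windows. HELLS carried both of these in 1 window, and the UHRF1 match lies before another start, outside the stretch printed above. These matches describe the sequence, and no binding was measured.

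Library totals were 32609485 and 33145516 counts in PF382 wild type, 65262329 to 93970572 in the knockout, and 38678382 and 45013453 in MOLT-14. Levels are given in CPM, counts scaled to a fixed library total after TMM correction of the totals. STAG2 itself was 325 and 558 CPM in PF382 wild type and 255, 182 and 197 CPM in the libraries labelled knockout, so the groups did not overlap but the RNA was not lost. It was 1.15 CPM (56 counts) with the empty vector in MOLT-14 and 139.9 CPM with STAG2. STAG1 was 55.1 and 49.1 CPM in PF382 wild type and 138 to 143 CPM in the knockout. T-lineage markers summed to 2105 to 3151 CPM over the 7 libraries, and 9 of 10 were at 10 CPM or more in every library. Defining markers of other lineages were at 0 in all libraries: MS4A1 (B cells), ELANE (neutrophils), HBB, HBA1 and ALAS2 (red cells) and COL1A2 (stroma). The 8 B-lineage markers summed to 9.54 to 40.8 CPM in PF382 wild type, 4.42 to 19.97 in the knockout and 31.5 and 45.7 in MOLT-14, led by CD79A. The 7 stromal and epithelial markers summed to 11.7 to 27.8 CPM in wild type and 7.89 to 10.47 in the knockout, and to 2.32 and 3.27 in MOLT-14. The 5 natural killer markers summed to 13.2 to 17.5 CPM over the PF382 libraries and to 3.02 and 2.07 in MOLT-14. The summed level of 8 myeloid markers was 17.2 to 27.9 CPM in PF382 wild type, most of it from ITGAM, and 0.674 to 1.49 CPM in the knockout. Called lower in the knockout were 1 T-lineage, 1 B-lineage, 2 myeloid, 1 erythroid and 2 stromal and epithelial markers, and no marker was called higher. Of all tested genes 14.6% were called lower and 15.8% higher. Small structural RNAs took 21% and 14.9% of the wild-type counts and 12% to 14% of the knockout counts. The part of these differences in the results below was not tested.

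In PF382, TDG and UHRF1 were higher in STAG2 knockout than in wild type, and TET1 was lower. TDG rose 2.80-fold and UHRF1 2.34-fold in mean CPM, and wild type held 1.66 times as much TET1 as the knockout. The other 6 genes, among them DNMT1, DNMT3A and TET2, did not pass the test (edgeR quasi-likelihood, Benjamini-Hochberg adjustment over 17442 genes, threshold 0.05). That is 3 of 9 genes called, 2 higher and 1 lower, where 30.4% of all tested genes were called, 15.8% higher and 14.6% lower. The share called among the 9 is therefore close to that of genes in general. Values of the 2 wild-type and 3 knockout libraries did not overlap for 5 of the 9 genes, against 60.2% of all tested genes. In bulk RNA fewer cells of a type and less RNA per cell cannot be told apart.

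**Figure D1:**
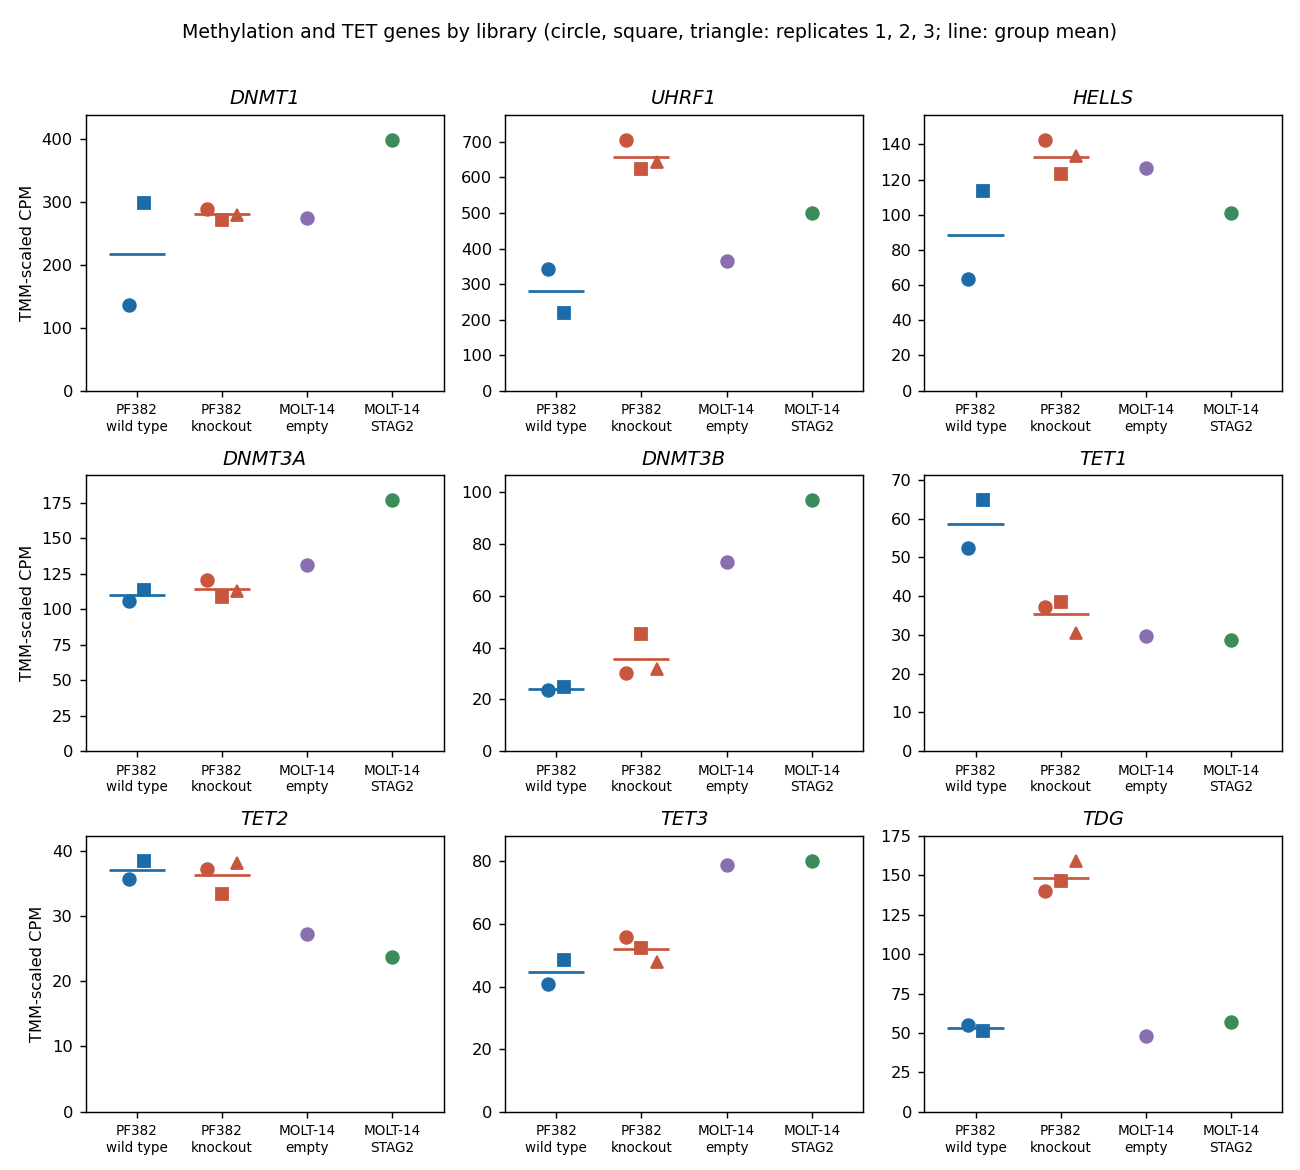
Level of each of the 9 genes in every library, in CPM with TMM-scaled totals, with 1 panel for each gene, 1 point for each library and a line at each group's mean. The 3 PF382 knockout libraries lie above both wild-type libraries for UHRF1 and TDG and below both for TET1, while the 2 wild-type libraries lie far apart for DNMT1.

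UHRF1, the reader of hemimethylated CpG, was 342 and 219 CPM in the PF382 wild-type libraries and 706, 623 and 643 CPM in the knockout. All knockout libraries were above both wild-type libraries. The means were 280.4 ± 86.6 CPM (SD, n = 2) in wild type and 657 ± 43.3 (n = 3) in the knockout. The log2 change was 1.16 ± 0.22 (SE), with an adjusted p of 0.0114 from edgeR.

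DNMT1, the maintenance methyltransferase, was 137 and 299 CPM in wild type and 289.6, 272 and 280.2 CPM in the knockout. The second wild-type library was above every knockout library and the first was far below them, so the groups overlapped. The log2 change was 0.30 ± 0.30 with an adjusted p of 0.476. Without wild-type replicate 2 it was 0.99, and without wild-type replicate 1 it was −0.14. A single wild-type library thus set both its size and its sign. Each of these fits left 1 wild-type library, so their spread came from the knockout alone. The wild-type libraries differed 2.18-fold in DNMT1, more than they did for 97.4% of 9264 genes with at least 10 CPM.

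HELLS, the nucleosome remodeller, was 63.3 and 114 CPM in wild type and 142, 123 and 133 CPM in the knockout. The knockout libraries were all higher, the nearest by a small margin. The log2 change of 0.52 ± 0.24 did not pass (edgeR adjusted p 0.145). It was 1.02 without wild-type replicate 2 and 0.18 without wild-type replicate 1. Wild-type replicate 2 was thus the higher of the pair for DNMT1 and HELLS and the lower for UHRF1, by log2 differences of 1.12, 0.84 and −0.64, where the median size of this difference over genes was 0.28.

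The de novo enzymes did not pass the test. DNMT3A was 106 and 114 CPM in wild type and 120.3, 109 and 113 CPM in the knockout, with overlapping groups and a log2 change of −0.01 ± 0.11 (adjusted p 0.946). DNMT3B was 23.6 and 24.8 CPM in wild type and 30.3, 45.4 and 31.6 CPM in the knockout. All knockout libraries were above wild type for DNMT3B, and the second knockout library stood 1.496 times above the lowest of them. The log2 change of 0.50 ± 0.19 had an adjusted p of 0.0970, and it was 0.29 without knockout replicate 2, 0.33 with upper-quartile scaling and 0.26 with the libraries titled SA.

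Among the TET dioxygenases TET1 fell. It was 52.5 and 64.7 CPM in wild type and 37.1, 38.4 and 30.5 CPM in the knockout, with every knockout library below wild type. The means were 58.6 ± 8.59 CPM (SD, n = 2) and 35.3 ± 4.21 (n = 3), a log2 change of −0.80 ± 0.15 with an adjusted p of 0.0130 from edgeR. TET2 was 35.7 and 38.4 CPM in wild type and 37.2, 33.4 and 38.2 CPM in the knockout. These values overlapped, and its log2 change was −0.10 ± 0.12 (adjusted p 0.565). TET3 was 40.8 and 48.5 CPM in wild type and 55.7, 52.5 and 47.7 CPM in the knockout, which overlapped too, with a log2 change of 0.15 ± 0.13 (adjusted p 0.415).

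TDG, the glycosylase, was 55.0 and 51.1 CPM in wild type and 139.9, 147 and 159 CPM in the knockout. The lowest knockout library was well above the highest wild-type library. The means were 53.1 ± 2.74 CPM (SD, n = 2) and 149 ± 9.82 (n = 3), and the log2 change of 1.42 ± 0.12 had an adjusted p of 0.00218 from edgeR. TDG, UHRF1 and HELLS are uncertain in that their expected counts were not all whole numbers, so some of their reads were shared with other genes. The listed pseudogene TDGP1 had 25 and 13 counts in wild type and 89, 190 and 139 in the knockout, beside 1809 and 1603 TDG counts in wild type and 8577, 12520 and 11573 in the knockout.

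Without wild-type replicate 1 or 2 the log2 change was 1.49 and 1.38 for TDG and 1.54 and 0.90 for UHRF1. It was −0.92 and −0.62 for TET1, and these fits left 1 wild-type library. The calls of TDG, UHRF1 and TET1 held without any single knockout library, with edgeR adjusted p of at most 0.0223, 0.0467 and 0.0466. They were lost when only the 3 libraries whose titles carry the letters SA were used, both wild types and knockout replicate 1, where 1.82% of genes were called. With 1 knockout library in that fit, the log2 changes were close to those of the full fit, at 1.33 for TDG (adjusted p 0.0624), 1.27 for UHRF1 (0.151) and −0.73 for TET1 (0.297). Both remaining knockout libraries carry SB, and what the letters stand for is not stated.

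**Figure D2:**
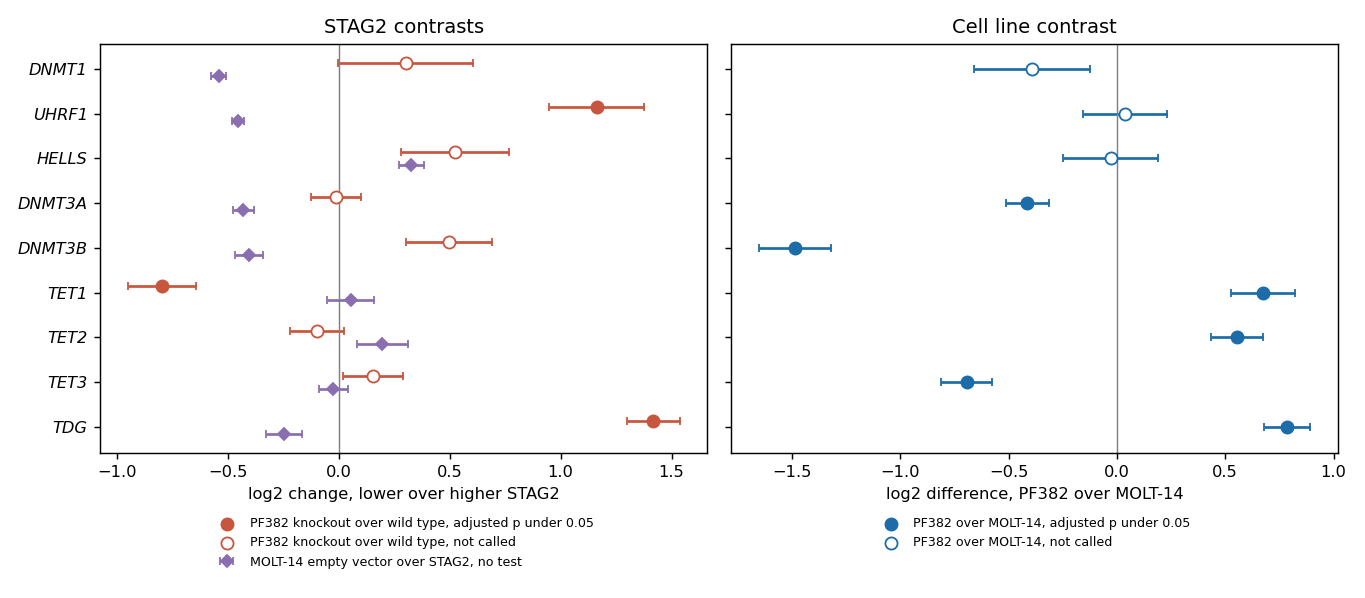
Log2 differences of the 9 genes with their standard errors, for PF382 knockout over wild type and for PF382 over MOLT-14, and log2 ratios of empty vector over STAG2 in MOLT-14 with 95% exact binomial intervals that cover counting error only. TDG at 1.42 and UHRF1 at 1.16 stand highest in the PF382 comparison and TET1 at −0.80 lowest. No ratio in MOLT-14 reaches 2-fold. Filled round points passed the test, and the MOLT-14 diamonds had no test.

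In MOLT-14, STAG2 transduction went with small differences in all 9 genes, and none reached 2-fold. Of 11140 genes with at least 5 CPM, 1.83% did, 1.11% higher and 0.718% lower. With 1 library a group there is no test, and intervals cover counting error only. DNMT1 was 274 CPM with the empty vector and 399 CPM with STAG2, a log2 ratio of 0.54 (95% exact binomial interval 0.51 to 0.57). UHRF1 was 365 and 500.2 CPM (log2 ratio 0.45), DNMT3A 131 and 177 CPM (0.43), and DNMT3B 73.2 and 96.8 CPM (0.40). TDG was 48.3 and 57.3 CPM (0.25, interval 0.17 to 0.33), all 5 of these being higher with STAG2.

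HELLS went the other way in MOLT-14, at 126 CPM with the empty vector and 101 CPM with STAG2, a log2 ratio of −0.33 (interval −0.38 to −0.27). TET2 was 27.2 and 23.8 CPM, a log2 ratio of −0.20 (interval −0.31 to −0.08). The intervals of TET1 (29.7 and 28.6 CPM) and TET3 (78.8 and 80.2 CPM) included 0. The median log2 ratio of all genes depended on the scale, 0.06 in these CPM, −0.14 on library totals and −0.51 in deposited TPM, transcripts scaled by length to a fixed sum per library. In TPM all 9 genes were lower with STAG2, and the sign of DNMT1, UHRF1, DNMT3A, DNMT3B, TDG and TET3 flipped. TET3 was also lower on library totals (−0.18). Relative to the median of all genes DNMT1, UHRF1, DNMT3A, DNMT3B and TDG were above it on each of the 6 scales tried, and HELLS, TET1 and TET2 below it. DNMT1 stood 0.48 above the median in CPM and 0.34 above it in TPM, and UHRF1 0.39 and 0.41 above it. Small structural RNAs held 4.87% of all counts in the empty-vector library and 9.27% in the STAG2 library, and their part in this was not tested.

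The effects of lower STAG2 were then compared between lines, as knockout over wild type in PF382 less empty vector over STAG2 in MOLT-14. The difference passed for TDG and not for the other 8 genes, at 1.67 ± 0.21 on the log2 scale (edgeR adjusted p 0.0477), where 0.607% of 20100 genes were called, 0.343% higher and 0.264% lower. TDG was 2.80-fold higher in the PF382 knockout than in its wild type, and in MOLT-14 it was 48.3 CPM with the empty vector and 57.3 CPM with STAG2. UHRF1 had a difference of 1.62 ± 0.39 that did not pass (adjusted p 0.0955). TET1 differed by −0.85 (adjusted p 0.170) and DNMT3B by 0.90 (adjusted p 0.210). The TDG difference was 1.61 to 1.70 without any single knockout library, where its call was lost (adjusted p 0.17 to 0.20, with 0 genes called by edgeR in all and 4 of the 9 at an unadjusted p under 0.05). Its call was also lost with upper-quartile scaling (1.44, adjusted p 0.064). TDG and UHRF1 were both called with DESeq2 and without a filter, with UHRF1 at 1.60 (adjusted p 0.00135) and 1.68 (0.0427). In these settings 2203 and 648 genes were called in all. Without wild-type replicate 1 or 2 the difference was 1.70 and 1.59 for TDG and 1.96 and 1.31 for UHRF1. Those fits left 1 wild-type library. The test assumes that single MOLT-14 libraries vary like PF382 replicates.

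Between the lines, 6 of the 9 genes differed, where 55.4% of 20100 tested genes did. DNMT3B, TET3 and DNMT3A were higher in MOLT-14, and TET1, TET2 and TDG were higher in PF382. Of all tested genes 28.4% were higher in MOLT-14 and 27% in PF382. This contrast sets the mean of both PF382 groups against the mean of both MOLT-14 groups in a fit of all 7 libraries. It cannot tell the lines from anything else that differed in how they were handled. Its spread comes from the PF382 replicates, and single MOLT-14 libraries are assumed to vary like them, so its p-values do not cover variation within MOLT-14. Values of the lines did not overlap for 5 of the 9 genes, against 56.3% of all genes.

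DNMT3B showed the widest gap of the 9, at 31.1 ± 8.67 CPM (SD, n = 5) in PF382 and 85.0 ± 16.7 (n = 2) in MOLT-14. Here and below, line means and SDs pool both groups of a line, so these SDs include differences between the groups. The lower MOLT-14 library, 73.2 CPM, was above the highest PF382 library, 45.4 CPM. The log2 difference of PF382 over MOLT-14 was −1.49 ± 0.17 (edgeR adjusted p 0.000721). DNMT3A was 113 ± 5.42 CPM in PF382 and 154 ± 32.2 in MOLT-14, a log2 difference of −0.41 ± 0.10 (adjusted p 0.0131). That call was lost without the MOLT-14 STAG2 library (−0.21, adjusted p 0.22) and without knockout replicate 2 (adjusted p 0.052).

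TET3 was 49.0 ± 5.62 CPM in PF382 (n = 5) and 79.5 ± 0.938 in MOLT-14 (n = 2), a log2 difference of −0.69 ± 0.12 (adjusted p 0.00318). TET1 was 44.7 ± 13.8 and 29.1 ± 0.763 CPM, and its log2 difference of 0.67 ± 0.15 passed (adjusted p 0.00929). The lowest PF382 knockout library, at 30.5 CPM, lay only just above the MOLT-14 libraries, and the others were at 37.1 and 38.4 CPM. TET2 was 36.6 ± 2.08 and 25.5 ± 2.44 CPM, a log2 difference of 0.56 ± 0.12 (adjusted p 0.00827) that was lost without the MOLT-14 STAG2 library (0.44, adjusted p 0.055).

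TDG was 110.4 ± 52.8 CPM in PF382 and 52.8 ± 6.35 in MOLT-14, a log2 difference of 0.78 ± 0.11 (adjusted p 0.00149) carried by the knockout. The PF382 mean and SD pool wild type at 53.1 CPM and knockout at 149 CPM. When PF382 wild type was set against MOLT-14 with the empty vector, TDG differed by 0.17 (adjusted p 0.398), DNMT3A by −0.22 (0.273) and TET2 by 0.48 (0.070), all lost. In that comparison DNMT3B (−1.56, adjusted p 0.0056), TET1 (1.02, 0.015) and TET3 (−0.79, 0.015) were called. A fit of line without the groups also lost TDG (1.05, adjusted p 0.11) and TET1 (0.62, adjusted p 0.14). DNMT1, UHRF1 and HELLS, the maintenance genes, did not pass between lines, with log2 differences of −0.39, 0.04 and −0.03. Without wild-type replicate 2, which leaves 1 wild-type library, the difference was −0.74 for DNMT1 and −0.29 for HELLS.

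Levels of different genes were compared in deposited TPM, which divides by length. UHRF1 and DNMT1 held the first and second place in every library and the TET genes were among the lowest. In the first PF382 wild-type library UHRF1 was 34.9 TPM and DNMT1 23.3 TPM, and in the second UHRF1 was 28.5 and DNMT1 57.1 TPM, so their order changed within the group. In the knockout UHRF1 was 96.2, 73.1 and 71.3 TPM and DNMT1 53.2, 40.8 and 41.1 TPM, which did not overlap. In MOLT-14 UHRF1 was 106 TPM with the empty vector and 98.8 TPM with STAG2, against 107 and 94.9 TPM for DNMT1.

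HELLS, DNMT3A and TDG took the middle places. In wild type TDG was below both others, at 8.45 and 10.9 TPM, against 10.8 and 25.1 TPM for HELLS and 10.1 and 12.3 TPM for DNMT3A. In the knockout TDG was 27.2, 24.7 and 25.1 TPM, above DNMT3A (16.9, 13.1 and 14.1 TPM) in each library and overlapping HELLS (28.9, 23.2 and 23.7 TPM). DNMT3B was 2.41 and 3.18 TPM in wild type and 3.44 to 5.32 TPM in the knockout, and it overlapped TET1 in wild type (2.03 and 3.20 TPM). In MOLT-14 DNMT3B was 19.5 and 17.5 TPM, next to TDG at 22.4 and 18.4 TPM.

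The TET genes were the lowest 3 in 6 of the 7 libraries. TET1 was the highest of them in both wild-type libraries, at 38.2% and 41.2% of their summed TPM. It was 26.8% to 31.5% of that sum in the knockout and 19.9% and 18.8% in MOLT-14. TET3 was 25.6% and 29.2% of the sum in wild type, 36.7% to 38.1% in the knockout, and 56.4% and 60.2% in MOLT-14. TET2 was 36.3% and 29.5% of the sum in wild type, 30.4% to 36.5% in the knockout, and 23.75% and 21.05% in MOLT-14. TET1 was thus highest in PF382 wild type and lowest in 4 of 5 libraries of the other groups. TET3 was lowest in wild type, in replicate 2 only just (2.27 TPM, against 2.29 TPM for TET2).

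**Figure D3:**
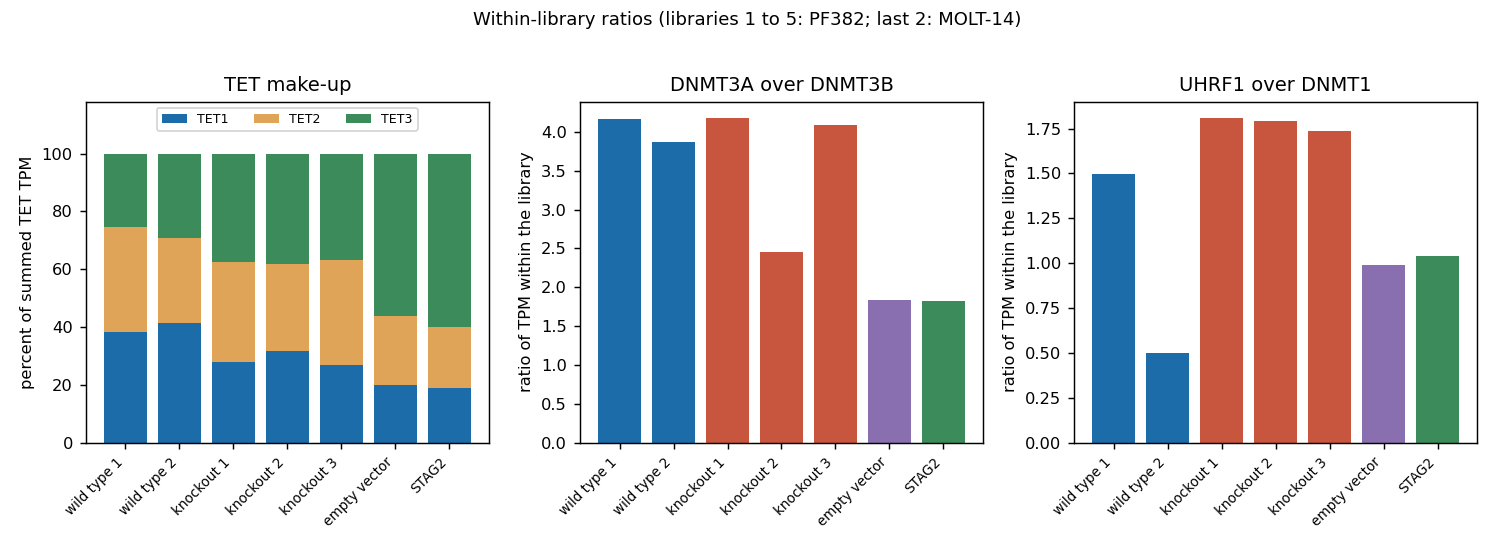
Deposited TPM of the TET genes as percentages of their sum, and the ratios of DNMT3A to DNMT3B and of UHRF1 to DNMT1, with 1 bar for each library and no error, since each bar is 1 library. TET1 makes up 38.2% and 41.2% of the sum in PF382 wild type and 19.9% and 18.8% in MOLT-14, and DNMT3A over DNMT3B is lowest in MOLT-14, at 1.84 and 1.83.

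Ratios of TPM between partners followed from these levels and carry no separate test. TDG over the summed TET genes was 1.59 and 1.40 in wild type and 3.89, 4.52 and 5.18 in the knockout, with no overlap. UHRF1 over DNMT1 was 1.49 and 0.4996 in wild type and 1.74 to 1.81 in the knockout, and it was 0.991 and 1.04 in MOLT-14. The knockout libraries lay close together in this ratio and the wild-type libraries far apart. DNMT3A over DNMT3B was 3.87 and 4.17 in wild type and 4.18, 2.45 and 4.09 in the knockout, and it was 1.84 and 1.83 in MOLT-14, below every PF382 library.

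The ratio of expected count to deposited FPKM gives the effective length (in bases) that the authors' software assigned to a gene in each library, which shifts when reads move between long and short transcripts. For TET1 it was 9400 to 9446 bases and for DNMT3B 3573 to 3701, nearly constant. The TET1 value exceeds its only GENCODE 29 transcript of 9288 bases, so the authors' transcript model of TET1 differs from the annotation used here for positions and transcript lengths. HELLS varied most of the 9, at 2116 to 2435 bases in PF382 and 1733 and 1377 in MOLT-14. Its spread of 1.77-fold was larger than that of 96.5% of 8530 genes, with shorter lengths in both MOLT-14 libraries. DNMT1 was 2134 and 2444 bases in wild type and 2691 to 2808 in the knockout, well short of its longest annotated transcript of 5408 bases. In MOLT-14 it was 2515 with the empty vector and 2724 with STAG2. TDG was 2371 and 2194 bases in wild type and 2507 to 2544 in the knockout, and 2112 and 2014 in MOLT-14. The spread over the libraries was larger than that of 76.4% of the genes for DNMT1 and 69.2% for TDG. No isoform values were used here, and these lengths had no test.

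Positions are those of GENCODE 29 on GRCh38, matched by gene identifier. DNMT1 (ENSG00000130816.16) lies on chromosome 19 at 10133345 to 10231286 on the minus strand, and UHRF1 (ENSG00000276043.5) on the same chromosome at 4903080 to 4962154 on the plus strand. TET1 (ENSG00000138336.9) lies on chromosome 10 at 68560656 to 68694482, and TDG (ENSG00000139372.15) on chromosome 12 at 103965804 to 103988874, both on the plus strand. DNMT3B (ENSG00000088305.18) lies on chromosome 20 at 32762385 to 32809356 on the plus strand. Whether counting used strand is not given in the sources used here, so antisense reads cannot be separated. S1PR2 overlaps DNMT1 on the same strand, and it had 171 to 461 counts over the 7 libraries.

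For each of the 9 genes the nearest patterns over the 7 libraries were sought among 10911 genes of at least 5 CPM, by the root mean square difference of log2 CPM after centring each gene. TDG was nearest to the histone gene HIST1H3A (0.05) and then SLC25A11 (0.10). UHRF1 was nearest to INTS9 (0.09), DNMT1 to RCC1 (0.15) and RAD54L (0.15), and HELLS to ASCC3 (0.11). DNMT3A was nearest to ISY1 (0.06), DNMT3B to SLC25A45 (0.16), TET1 to RBSN (0.09), TET2 to MFSD8 (0.05) and TET3 to ZNF134 (0.05). Among the 9 themselves DNMT3A and TET3 were closest (0.19) and DNMT3B and TDG farthest apart (1.15). DNMT1 and HELLS were 0.31 apart and UHRF1 and TDG 0.41. The median distance of a gene to all those searched ran from 0.43 for TET2 to 0.84 for DNMT3B. It was 0.48 for DNMT3A, 0.58 for DNMT1, 0.62 for UHRF1 and 0.72 for TDG. These distances mix the lines, the groups and the libraries' own spread.

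Other genes of the pathway were taken in lists, 110 genes in all with the 9 included, and 40 of the 93 that could be tested passed in PF382 knockout against wild type (43%, against 30.4% of all tested genes). Without the S-phase reference genes 25 of 71 passed, or 35.2%. With the SA libraries alone 1 passed, and without knockout replicate 1, 2 or 3 the count was 26, 26 and 25. The call of every further gene named here was lost with the SA libraries alone. In maintenance methylation 3 of 11 genes were higher, 1 was lower and 7 did not pass, with a median log2 change of 0.30 against −0.02 over all genes. PCNA, the replication clamp, rose from 287 ± 30.4 CPM (SD, n = 2) to 547 ± 55.0 (n = 3), a log2 change of 0.86. ZBTB24, a zinc finger protein needed for methylation of satellite repeats, rose from 30.4 ± 0.377 to 54.0 ± 3.28 CPM (0.76). UHRF2, the paralog of UHRF1, fell from 136 ± 43.5 to 84.8 ± 4.45 CPM (−0.75). The UHRF2 change was −0.36 without wild-type replicate 2 and did not pass without knockout replicate 1, 2 or 3 (adjusted p 0.0888, 0.0974 and 0.0797).

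In de novo methylation and its recruitment 4 of 10 tested genes were higher and 6 did not pass (median log2 change 0.29), where 15.8% of all tested genes were higher. TRIM28, the corepressor that silences transposable elements, rose from 469 ± 1.11 to 803 ± 49.9 CPM (0.71, adjusted p 0.0101). It was lost without knockout replicate 2 or 3 (adjusted p 0.0596 and 0.0536). The histone H3K9 methyltransferases EHMT1 (0.39) and EHMT2 (0.35) and the silencing factor MORC2 (0.49) were called, and each was lost without any single knockout library, with upper-quartile scaling and with protein-coding genes only. DNMT3L, the inactive partner of the de novo enzymes, had 0 counts in every library, and ZFP57 and DPPA3 were not tested. Between lines none of these 10 genes was higher in PF382 and 6 were higher in MOLT-14, among them DNMT3A and DNMT3B, where 27% and 28.4% of all genes were.

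Among the TET genes, their cofactors and regulators, 2 of 14 genes were higher, TET1 alone was lower and 11 did not pass (median 0.02). Shares over all tested genes were 15.8% higher and 14.6% lower. CXXC4, a CpG-binding protein that acts on TET2, rose from 2.73 ± 0.555 to 7.93 ± 1.66 CPM (1.47, adjusted p 0.0131). IDH3A, a subunit of the mitochondrial enzyme that makes the TET cofactor 2-oxoglutarate, rose from 52.0 ± 2.14 to 87.7 ± 5.27 CPM (0.69, adjusted p 0.00824). In MOLT-14 1 of the pathway genes passed 2-fold, WT1, named after its value was seen. WT1, a transcription factor that binds TET2, was 5.12 CPM with the empty vector and 13.8 CPM with STAG2, and in PF382 it was not called (adjusted p 0.331). Its change in PF382 rested on the wild-type libraries, at 1.94 without wild-type replicate 1 and 0.05 without replicate 2.

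In excision repair 2 of 11 genes were higher, TDG and UNG, and 2 were lower, NEIL1 and XRCC1 (median 0.21), a share near the 30.4% of all tested genes. UNG, the uracil glycosylase, rose from 67.6 ± 4.203 to 141 ± 7.64 CPM (0.997, adjusted p 0.00372). NEIL1, another glycosylase, fell from 3.29 ± 0.505 to 1.21 ± 0.118 CPM (−1.51, adjusted p 0.00931). XRCC1, the scaffold of single-strand break repair, fell from 50.9 ± 10.2 to 36.9 ± 1.22 CPM (−0.53, adjusted p 0.0366). The XRCC1 change was −0.29 without wild-type replicate 2 (adjusted p 0.0804), and it did not pass without knockout replicate 1, 2 or 3 (0.0976, 0.115 and 0.0951) or without a filter on low counts.

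Of 8 methyl-CpG readers 2 were higher, 1 was lower and 5 did not pass (median 0.12). Shares over all tested genes, for this list and the next, were 15.8% higher and 14.6% lower. MBD3, a subunit of the NuRD complex that binds methylated DNA only weakly, rose from 79.5 ± 19.4 to 166 ± 10.3 CPM (0.99, adjusted p 0.00961). MBD2, which binds methylated DNA for the same complex, rose from 50.1 ± 4.34 to 82.5 ± 11.6 CPM (0.65), and its call was lost without wild-type replicate 1 or knockout replicate 1 or 3 (adjusted p 0.0507, 0.0835 and 0.0927). ZBTB4 fell from 31.2 ± 2.86 to 21.3 ± 0.494 CPM (−0.62), and its call was lost without knockout replicate 2 or 3 (0.0553 and 0.0525). Of 6 genes of CpG island proteins 1 was higher, BCOR (0.36), and 1 lower, KMT2B (−0.43). BCOR is a Polycomb corepressor with no CXXC domain of its own, and KMT2B is a histone methyltransferase. BCOR was lost without wild-type replicate 1 (adjusted p 0.0616), KMT2B without wild-type replicate 2 (−0.25, adjusted p 0.137), and both without any single knockout library. BCOR was also lost with upper-quartile scaling and KMT2B without a filter.

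In methyl donor supply 4 of 10 tested genes were higher, none was lower and 6 did not pass (median 0.34), beside 15.8% higher and 14.6% lower of all tested genes. MAT2A, which makes S-adenosylmethionine, rose from 64.3 ± 14.7 to 147 ± 20.5 CPM (1.13, adjusted p 0.00969). AHCY, which clears the product S-adenosylhomocysteine, rose from 268 ± 57.5 to 516 ± 27.0 CPM (0.88, adjusted p 0.0116), and was lost without knockout replicate 2 (0.0533). ADK, which removes the adenosine formed with it, rose from 22.9 ± 2.01 to 41.3 ± 1.84 CPM (0.79, adjusted p 0.00686). MTRR, which reactivates methionine synthase, rose from 26.9 ± 6.38 to 41.8 ± 0.952 CPM (0.57, adjusted p 0.0440), was 0.36 without wild-type replicate 2, and was lost without any single knockout library, with upper-quartile scaling and with protein-coding genes only. Germline genes that promoter methylation keeps silent in many cells were mostly too low to test: 13 of 15 were left out by the filter. Of the other two PRAME was lower in the knockout, at 1.102 ± 0.205 and 0.220 ± 0.122 CPM, and was lost without wild-type replicate 1 (adjusted p 0.0532) or knockout replicate 1 (0.0609).

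UHRF1, HELLS and DNMT1 are known to be made mostly in S phase, so 22 S-phase genes are given beside them. Of these 14 were higher in the PF382 knockout, 1 was lower and 7 did not pass, with a median log2 change of 0.84. Over all genes 30.4% were called, 15.8% higher and 14.6% lower. Some of the 14 calls were lost without any single knockout library, and others without some of them. Those of MCM5, CDC45 and MCM2 held without each knockout library. MCM5 rose from 179 ± 20.7 to 420.5 ± 31.1 CPM (1.16), CDC45 from 37.1 ± 0.640 to 82.4 ± 5.05 CPM (1.09) and MCM2 from 301 ± 17.3 to 608 ± 15.8 CPM (0.95). The exception, named after its value was seen, was CDT1, which licenses replication origins and fell from 171 ± 22.6 to 101.5 ± 1.86 CPM (−0.82). In MOLT-14 none of the 22 reached 2-fold, and their median log2 ratio of STAG2 over empty vector was 0.42, against 0.06 over all genes. The part of S-phase genes as a group in the changes of UHRF1 and TDG was not tested.

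**Figure D4:**
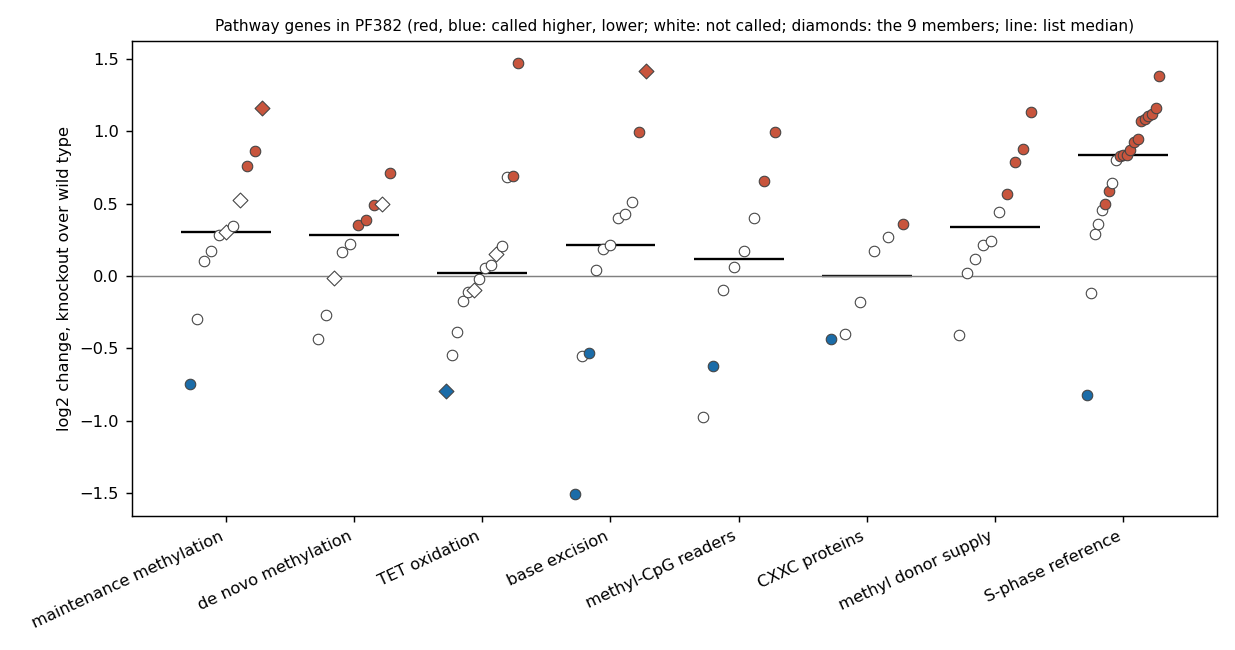
Log2 change of every tested gene of the pathway lists in PF382 knockout over wild type, with 1 column of points for each list, called genes filled, the 9 genes as diamonds and the list median as a line. The germline list and TK1 are left out. The S-phase list has a median of 0.84 and the TET list of 0.02, and TDG at 1.42 and NEIL1 at −1.51 lie at the ends of the excision repair list.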

How the data were processed

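Total RNA of 7 libraries was sequenced, and the authors deposited 1 table a library with expected counts, TPM and FPKM for 60754 features. STAR, RSEM, GRCh38 and hg38 are named per the submitters' processing notes, and versions, annotation release and strand setting are not given in the sources used here. The deposited expected counts, estimates of reads per gene without normalisation, were used for all tests after rounding, and 91.8% to 93.3% of them were whole already. The deposited TPM was used to compare levels between genes, and the deposited FPKM to derive effective lengths. The 92 ERCC features were left out. Total counts were 32609485 to 93970572 a library, and no molecular identifiers were used. The intervals of the MOLT-14 ratios cover counting error only, since each MOLT-14 group has 1 library.

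Groups came from the titles. Tests were run in R 4.3.3 with edgeR 4.0.16 (quasi-likelihood, two-sided, TMM, filterByExpr, Benjamini-Hochberg over all genes tested, threshold 0.05). Knockout and wild type were compared in PF382 libraries alone. Contrasts between lines, and the difference of STAG2 effects, came from a fit of 4 groups to 7 libraries. CPM shown uses TMM over 7 libraries, and line means weight each library equally while the line contrast weights each group equally. Folds of mean CPM therefore need not equal fitted changes. Standard errors were derived from the log2 change and the F statistic. MOLT-14 ratios used a prior count of 2. Alternatives were DESeq2 1.42.0, other scalings and filters, the SA libraries alone and each library left out. A scale of TPM within protein-coding genes was added after seeing the data. The scripts were tested on simulated counts with known changes. For knockout against wild type 25% of 2-fold and 98% of 4-fold changes were recovered, and between lines 37% and 100%. For the difference of STAG2 effects 1% of 2-fold and 27% of 4-fold changes were recovered. A gene that did not pass may therefore still have changed.

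All 9 genes are named in every comparison. From each pathway list up to 4 called genes with the smallest adjusted p are named (some items are not reported here), and for each of the 9 genes the 2 nearest patterns were computed. The genes and lists were chosen with earlier results of these data known.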

Additional observations from a re-analysis of the deposited data

Results flagged for a closer look

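The effect of lower STAG2 on TDG differed between the lines by 1.67 ± 0.21 on the log2 scale (edgeR quasi-likelihood test of the difference, adjusted p 0.0477). TDG was higher in every PF382 knockout library than in both wild-type libraries (log2 change 1.42), while in MOLT-14 STAG2 over empty vector gave a log2 ratio of 0.25. Without any single knockout library the difference was 1.61 to 1.70 and did not pass (adjusted p 0.17 to 0.20), where edgeR called 0 genes in all and 4 of the 9 had an unadjusted p under 0.05. With upper-quartile scaling it was 1.44 (0.0645). It passed with DESeq2 (adjusted p 5.75e-10) and without a filter (edgeR adjusted p 0.0114), where 2203 and 648 genes were called in all in place of 122. Without wild-type replicate 1 or 2 it was 1.70 and 1.59, in fits with 1 wild-type library left.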

How the results depend on the processing

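No paired analysis was possible because the labels give the PF382 groups no shared replicate numbers and MOLT-14 has 1 library a group. Fits without 1 wild-type library left 1 in that group, so their spread came from the knockout libraries alone. The fit of SA libraries left 1 knockout library. Counts of calls below that include these fits carry that limit and do not show that a call held. For PF382 knockout against wild type, 3 of the 9 genes were called and 0 with the SA libraries alone (2 at an unadjusted p under 0.05), and 3 to 5 with 1 library left out. Of the pathway genes 40 were called, 1 with the SA libraries alone, and 25 to 50 with 1 library left out. Genes called in all were 5311, 306 with the SA libraries alone, and 2649, 2344 and 2271 without knockout replicate 1, 2 and 3. Upper-quartile scaling called 1824 higher and 3566 lower, against 2763 and 2548, and gave a median over all genes of −0.18 in place of −0.02. TDG (1.25), UHRF1 (0.99) and TET1 (−0.96) were still called there. Of the pathway genes named in the report, EHMT1, EHMT2, BCOR and MTRR were also lost with a filter of 1 CPM in 2 libraries, EHMT2 and BCOR with RLE scaling, BCOR with protein-coding genes only, and KMT2B in the fit of 7 libraries. Between lines 6 of the 9 were called, 4 to 8 with 1 library left out, and 3 for wild type against empty vector, where 7176 genes were called in all in place of 11141. For the difference of STAG2 effects 1 was called, 2 with DESeq2, 2 without a filter, 0 with upper-quartile scaling (3 at an unadjusted p under 0.05) and 0 to 3 with 1 library left out. Genes called in all for it were 122, 2203 with DESeq2, 648 without a filter, 28 with upper-quartile scaling, 2296 and 2125 without wild-type replicate 1 and 2, and 0 without any single knockout library.

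Among the 9 genes, the signs that turned in the tested comparisons were of changes that had not passed. Of the pathway genes CXXC5 was 1.555 without wild-type replicate 1 and −1.34 without wild-type replicate 2, with 1 wild-type library left in each fit. DNMT3A in knockout against wild type (−0.01) was 0.02 in the fit of 7 libraries, 0.06 with the SA libraries and 0.07 without a filter, and −0.07 to 0.06 with 1 library left out. DNMT1 was −0.14 to 0.99 with 1 library left out. TET3 was −0.01 with upper-quartile scaling, and its difference of STAG2 effects was −0.05. The HELLS difference was −0.03 with upper-quartile scaling and −0.18 to 0.66 with 1 library left out. Between lines HELLS was 0.01 in the fit of line alone and −0.29 to 0.14 with 1 library left out. UHRF1 between lines was −0.34 for wild type against empty vector, −0.11 with upper-quartile scaling and −0.19 to 0.25 with 1 library left out. The cause of these shifts was not tested. In MOLT-14 the signs of TDG, DNMT1, UHRF1, DNMT3A, DNMT3B and TET3 turned with deposited TPM, and 0 of the 9 reached 2-fold on any of the scales.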

Other observations

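TK1, the S-phase thymidine kinase, chosen after its values were seen, had 0 counts in both PF382 wild-type libraries. It had 1834, 17 and 1024 counts in the knockout libraries and 5444 and 9251 in MOLT-14 with the empty vector and with STAG2. The change in PF382 did not pass (edgeR adjusted p 0.0589). It passed without knockout replicate 2, the library with 17 counts (edgeR adjusted p 0.0185), and did not without knockout replicate 1 (0.106).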
